A study of Mus musculus with 45 samples.

Results

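The 35 genes described here encode the machinery of mitosis, from the kinases that start cell division to the proteins that separate the daughter cells. They were matched by gene symbol to a list that was chosen with earlier results of these data known. All 35 were found among the 36300 genes in the deposited tables. RNA was sequenced from forelimb buds of CD1 mouse embryos, an outbred stock, taken on gestation day 13 and cultured as whole organs in medium with or without bisphenol A, a chemical of polycarbonate plastics known to act on estrogen receptors. The 9 groups were limb buds cultured with the vehicle dimethyl sulfoxide (DMSO), with 10 µM or with 50 µM bisphenol A, each for 3, 24 or 48 h, and every group held 5 libraries. Limbs of both sexes were pooled into shared cultures, so neither sex nor single embryos can be told apart. All 9 groups share explantation and culture, and none was taken straight from the embryo. No label ties the 5 libraries of a group to different litters, dams or days of culture, and every p-value therefore reflects only how far these libraries differed, which may be technical. The labels name no batch.

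A cell enters mitosis when the kinase Cdk1 is switched on by its cyclin partners, which in these genes are Ccnb1, Ccnb2 and Ccna2. Grouped with them here as kinases and kinase partners are Plk1, Aurka, Aurkb and Birc5, while the kinases Bub1 and Ttk are counted with the checkpoint genes. Chromosomes then attach to the spindle through kinetochores, a checkpoint holds the cell until every chromosome is attached, and the anaphase-promoting complex with its activator Cdc20 releases them. The checkpoint and kinetochore genes are Bub1, Bub1b, Ttk, Cenpe, Cenpf, Ndc80, Nuf2 and Spc25, the spindle motors Kif2c, Kif4, Kif11, Kif15, Kif20a and Kif23, and the spindle assembly genes Tpx2, Nusap1, Hmmr, Aspm, Dlgap5 and Ckap2l. Cdc20, Ube2c, Prc1, Anln and Ect2 serve mitotic exit and cytokinesis, and Top2a and Mki67 act on the chromosomes themselves. Transcripts of most of these genes accumulate only in the phases before division and fall after it, so in bulk RNA their level tends to follow the share of dividing cells. In the limb bud, mesenchyme cells divide while the cartilage models form, and cartilage cells leave the cycle as they mature. Many such genes carry in their promoters the letters of the cell cycle genes homology region (CHR), which the MuvB complex binds together with Mybl2 and Foxm1, and the CCAAT box, which NF-Y binds.

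RefSeq promoter windows (GRCm38.p6, 250 bases before to 50 bases after each annotated start) were at hand for 30 of the 35 genes, in 32 windows, since Ect2 and Prc1 each had 2 that overlap. The table held no entry for Ccna2, Aurkb, Kif20a, Tpx2 or Dlgap5. The windows below are those of Cdk1, the kinase itself, of Cdc20, which has both motifs near its start, of Top2a, which had the most CCAAT boxes of the windows shown, and of Nusap1, the gene with the smallest p under 50 µM at 24 h, which had neither motif. Each runs 5′ to 3′ along the gene, and the capitals mark a CHR or a CCAAT box on either strand. The Cdk1 window is chr10:69352863-69353162 (minus strand), the Cdc20 window chr4:118437294-118437593 (minus), the Top2a window chr11:99024140-99024439 (minus) and the Nusap1 window chr2:119618048-119618347 (plus).
Cdk1: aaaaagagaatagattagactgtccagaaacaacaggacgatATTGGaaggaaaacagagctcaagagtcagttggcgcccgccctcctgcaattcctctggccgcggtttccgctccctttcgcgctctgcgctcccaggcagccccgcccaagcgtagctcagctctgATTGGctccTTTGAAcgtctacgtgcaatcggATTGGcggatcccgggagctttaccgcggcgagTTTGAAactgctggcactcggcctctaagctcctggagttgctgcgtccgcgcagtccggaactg
Cdc20: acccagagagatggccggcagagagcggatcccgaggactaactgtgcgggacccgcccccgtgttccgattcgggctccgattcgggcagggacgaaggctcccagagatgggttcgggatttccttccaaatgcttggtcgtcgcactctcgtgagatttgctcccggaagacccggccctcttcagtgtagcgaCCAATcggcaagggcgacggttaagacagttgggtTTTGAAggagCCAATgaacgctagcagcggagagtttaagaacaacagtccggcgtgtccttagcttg
Top2a: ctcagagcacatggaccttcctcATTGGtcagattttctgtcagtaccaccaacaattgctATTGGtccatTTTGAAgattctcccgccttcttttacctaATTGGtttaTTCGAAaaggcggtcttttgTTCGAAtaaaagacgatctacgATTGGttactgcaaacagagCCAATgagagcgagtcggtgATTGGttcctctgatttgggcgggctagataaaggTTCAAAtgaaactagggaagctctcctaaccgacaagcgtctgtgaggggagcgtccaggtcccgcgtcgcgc
Nusap1: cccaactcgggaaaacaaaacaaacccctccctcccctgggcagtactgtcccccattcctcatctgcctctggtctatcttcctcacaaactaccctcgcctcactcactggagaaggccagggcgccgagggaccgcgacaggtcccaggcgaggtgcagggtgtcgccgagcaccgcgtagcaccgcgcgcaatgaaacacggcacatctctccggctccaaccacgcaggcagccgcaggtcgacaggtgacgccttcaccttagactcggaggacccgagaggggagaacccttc

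The CHR was searched as TTTGAA or, in its other form, TTCGAA and the CCAAT box as CCAAT, each on both strands, where a CHR and a CCAAT box can share a base at their ends. A CHR stood in 27 of the 32 windows (84.4%), against 19.2% of all 32851 windows of the same length in the table. At least 1 CCAAT box stood in 25 windows (78.1%), against 37.4% of all windows, and 18 windows (56.2%) held 2 or more, against 11.7%. Both motifs together stood in 23 windows (71.9%) and in 7.52% of all windows. The E2F core, searched as TTGGCGC, as the form TTCCCGC, as the form TTGCCGC and as the form TTCGCGC on both strands, stood in 7 windows (21.9%) and in 9.57% of all windows, and its first form can overlap a CCAAT box read on the other strand. With each match counted once, 38 of the 57 CCAAT matches in these genes lay in the 100 bases before the start. Of the 36 CHR matches, 10 lay there. Most of the other CHR matches lay just after the start, from base 3 in Cenpf and Kif23 to base 42 in Ckap2l. The rest lay further before it, as far as base -234 in Kif15. Birc5, Nuf2 and Nusap1 had neither motif in these letters. A match describes the sequence alone, since no binding was measured.

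**Figure D1:**
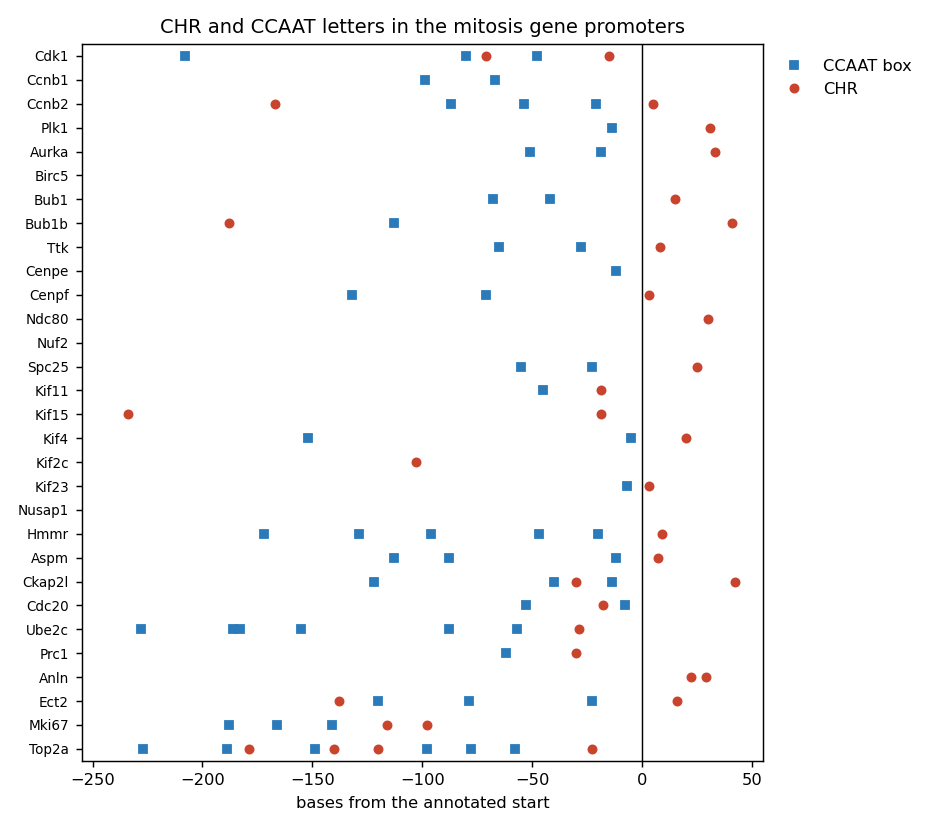
Positions of CHR (red circles) and CCAAT box (blue squares) letters on either strand in the promoter windows of 30 mitosis genes, one row per gene, with the distance in bases from the annotated start on the x axis. Most squares (38 of 57) lie in the 100 bases before the start, and Birc5, Nuf2 and Nusap1 have empty rows.

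Libraries held 17540925 to 27119650 counts in genes, of which 23884 to 90214 fell in the 35 genes. Markers of chondrocytes, limb mesenchyme, skeletal muscle, endothelium, erythroid cells, macrophages and epidermis were all detected in every group, with none at 0. The summed epidermal markers varied widely among libraries of a group, from 87.4 to 1580 CPM in vehicle at 24 h. This spread went with replicate number, since replicates 4 and 5 held the lowest sums in every group. Levels are CPM, counts divided by the size of the library on a scale fitted over all 45 libraries, as mean ± SD (n = 5 libraries) or library by library in the order of replicates 1 to 5. A gene is said to rise or fall where edgeR's quasi-likelihood test, adjusted by Benjamini-Hochberg over all genes tested, gave a value under 0.05, and log2 fold changes are given ± SE.

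In vehicle at 3 h the 35 genes took 0.380% ± 0.032 of all counts. The 5 libraries held 0.419%, 0.361%, 0.367%, 0.407% and 0.345%. At 24 h the same share was 0.163% ± 0.011, with 0.160%, 0.165%, 0.182%, 0.154% and 0.156%. Every library at 24 h lay below every library at 3 h. At 48 h the share was 0.172% ± 0.009. With 50 µM bisphenol A the share was 0.367% ± 0.008 at 3 h, 0.136% ± 0.009 at 24 h and 0.159% ± 0.014 at 48 h. At 24 h the 50 µM libraries held 0.131%, 0.131%, 0.151%, 0.129% and 0.136%, all below the vehicle libraries of that time. With 10 µM the shares were 0.358% ± 0.036, 0.165% ± 0.007 and 0.183% ± 0.006 at 3, 24 and 48 h, each range overlapping that of vehicle. In bulk RNA, fewer dividing cells and less RNA of these genes per cell cannot be told apart.

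**Figure D2:**
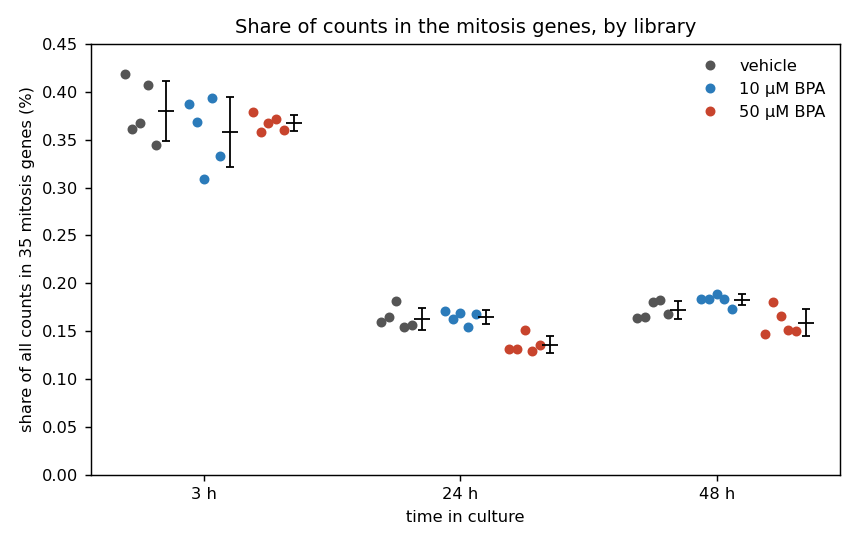
Share of all counts that fell in the 35 mitosis genes (y axis, percent) in each library (points) by time in culture (x axis) and treatment (colour), with black bars for mean ± SD of 5 libraries. The share at 24 and 48 h lies far below that at 3 h in every treatment, and the 50 µM libraries at 24 h lie between 0.129% and 0.151%, below the vehicle libraries.

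Levels were divided by the deposited length of each gene to set genes beside each other. That length need not be the length of the transcripts present, so the order of genes is approximate. On this scale Cdc20, the activator of the anaphase-promoting complex, was highest in vehicle at 3 h, at 55.3 ± 5.26 CPM per kilobase. Top2a, which untangles sister chromosomes, followed at 53.1 ± 6.63 CPM per kilobase, within the spread of Cdc20. Ccnb2, a B-type cyclin, stood at 42.8 ± 2.45, Mki67, the usual marker of dividing cells, at 39.1 ± 3.58 and Tpx2, which nucleates spindle microtubules, at 36.6 ± 1.98 CPM per kilobase. The lowest were the checkpoint kinase Ttk at 8.16 ± 1.35, the kinetochore protein Ndc80 at 7.77 ± 0.668 and the spindle motor Kif15 at 7.64 ± 1.10 CPM per kilobase, which did not differ beyond their spread. Top2a and Cdc20 also led at 24 h, with 22.7 ± 0.982 and 22.6 ± 2.56 CPM per kilobase, and at 48 h, with 25.6 ± 1.97 and 25.8 ± 2.73.

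The first comparison in time set vehicle cultures of 24 h against those of 3 h, and all 35 genes fell. Of 17081 genes tested, 13.8% were lower at 24 h. The median of the 35 log2 fold changes was -1.21, a 2.32-fold lower level, where the median over all genes tested was -0.0008. The values ran from -0.74 for Cdk1 to -1.53 for Kif2c, and the libraries of the 2 times did not overlap for any of the 35. The share of all genes tested that did not overlap was not counted. Leaving out any 1 of the 10 libraries left all 35 called.

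Among the kinases and cyclins, 8 of 8 fell, with a median log2 fold change of -1.11. Cdk1 libraries held 98.1, 100.5, 93.4, 104.4 and 98.0 CPM at 3 h and 61.5, 55.7, 62.6, 58.0 and 54.96 CPM at 24 h, a log2 fold change of -0.74 ± 0.06 (adjusted p = 5.91e-07). Its cyclin Ccnb1 held 131.9, 120.1, 119.7, 147.9 and 122.5 CPM at 3 h and 45.1, 52.1, 59.0, 46.9 and 49.6 CPM at 24 h, a log2 fold change of -1.33 ± 0.09 (adjusted p = 6.35e-08). Ccna2 lay between them at -0.93 ± 0.08, and differences between genes were not tested. Aurkb, which corrects faulty chromosome attachments, had 58.8, 56.7, 53.5, 53.0 and 59.2 CPM at 3 h and 32.2, 26.3, 27.9, 27.7 and 22.9 CPM at 24 h (log2 fold change -1.03 ± 0.09). Birc5, its partner in the chromosomal passenger complex, was at -0.99 ± 0.09, while Aurka and Plk1, which build the spindle poles, were at -1.23 ± 0.09 and -1.19 ± 0.10. Ccnb2, the other B-type cyclin, was at -1.29 ± 0.09, close to Ccnb1.

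Checkpoint and kinetochore genes fell in 8 of 8, with a median of -1.28. Bub1b, which holds back Cdc20 until chromosomes are attached, had 118.5, 106.8, 98.9, 107.2 and 102.8 CPM at 3 h and 46.5, 39.1, 44.3, 40.8 and 44.7 CPM at 24 h (log2 fold change -1.30 ± 0.07, adjusted p = 2.55e-08). The kinetochore motor Cenpe was the lowest of this group at -1.38 ± 0.09, and the large kinetochore protein Cenpf was at -1.34 ± 0.09. The checkpoint kinases Bub1 and Ttk were at -1.22 ± 0.10 and -1.27 ± 0.11. Nuf2, a subunit of the Ndc80 complex that grips microtubules, had the largest p of the 35 genes and still did not overlap, with 58.5, 58.9, 57.7, 63.1 and 52.3 CPM at 3 h and 31.3, 29.5, 37.4, 24.8 and 24.4 CPM at 24 h (log2 fold change -0.97 ± 0.11, adjusted p = 1.06e-05). Spc25 of the same complex was at -0.99 ± 0.10 and Ndc80 itself at -1.29 ± 0.10, and all 3 subunits fell.

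All 6 spindle motors and all 6 spindle assembly genes fell, with medians of -1.26 and -1.23. Kif20a, a motor of the central spindle, had 93.2, 69.5, 74.7, 84.1 and 79.5 CPM at 3 h and 30.9, 30.4, 32.1, 35.1 and 31.5 CPM at 24 h (log2 fold change -1.31 ± 0.08, adjusted p = 5.74e-08). Tpx2, which had the smallest p of the 35 genes, held 181.3, 168.2, 157.3, 177.4 and 171.0 CPM at 3 h and 70.0, 74.4, 81.0, 69.7 and 72.7 CPM at 24 h (log2 fold change -1.21 ± 0.06, adjusted p = 2.28e-08). Kif2c, which removes tubulin from microtubule ends, fell by 1.53 ± 0.10 on the log2 scale. Kif11, the motor that pushes the spindle poles apart, was at -1.32 ± 0.10 and Kif15, which helps it, at -1.20 ± 0.10, while Kif4, which acts on chromosome arms and the central spindle, was at -1.05 ± 0.09. The microtubule-binding Nusap1 was at -1.14 ± 0.09 and Aspm of the spindle poles at -1.47 ± 0.13. Hmmr, Dlgap5 and Ckap2l, which also bind spindle microtubules, were at -1.15 ± 0.10, -1.27 ± 0.10 and -1.26 ± 0.10.

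The 5 genes of mitotic exit and cytokinesis also fell, with a median of -1.16. Cdc20 held 113.7, 103.4, 94.7, 92.4 and 112.6 CPM at 3 h and 49.1, 41.8, 44.0, 36.1 and 40.1 CPM at 24 h (log2 fold change -1.28 ± 0.09). Ect2, which places the cleavage furrow, was at -1.48 ± 0.14, and Ube2c, the ubiquitin carrier of the anaphase-promoting complex, at -1.09 ± 0.09. Prc1 and Anln, which shape the central spindle and the furrow, were at -1.06 ± 0.08 and -1.16 ± 0.11. Mki67 fell from 440.9, 368.7, 408.4, 402.5 and 348.4 CPM to 160.7, 191.9, 195.5, 175.5 and 169.9 CPM (log2 fold change -1.13 ± 0.08, adjusted p = 1.01e-07). Top2a fell from 556.3, 430.9, 434.0, 529.1 and 440.6 CPM to 197.3, 202.5, 219.2, 198.3 and 206.7 CPM (log2 fold change -1.21 ± 0.08, adjusted p = 7.16e-08). The highest 24 h library of either gene stood at less than its lowest 3 h library by a wide margin.

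Beyond the 35, a further 42 mitosis genes were looked up, and all 42 fell with a median log2 fold change of -1.03, and those of smallest p were Espl1 (the enzyme that cuts sister chromosomes apart) at -1.12 ± 0.07, Ska3 at -1.46 ± 0.10, Racgap1 at -0.97 ± 0.06 and Kif22 at -1.05 ± 0.07. DNA replication genes fell in 38 of 38, by less: their median was -0.62 and Pcna, the sliding clamp of DNA polymerase, was at -0.54 ± 0.07. Of 22 transcription regulators of the cell cycle 13 fell, among them Foxm1 at -0.82 ± 0.07, Mybl2 at -0.78 ± 0.12, E2f7 at -1.09 ± 0.10 and Nfyb at -0.45 ± 0.06. Of 15 genes of the anaphase-promoting complex 7 fell and 1 rose, Anapc5 at 0.30 ± 0.06. A list of 13 G1 cyclins, kinases and their activators split, with 6 lower and 3 higher. The largest falls in it were those of Cdc25c, the phosphatase that activates Cdk1 at entry into mitosis, at -1.35 ± 0.09, and of the transcription factor Mycn at -0.84 ± 0.10, neither of them a G1 cyclin or kinase, while the D-type cyclin Ccnd3 rose by 0.70 ± 0.08. Among 10 inhibitors and antiproliferative genes tested, Cdkn1a (p21) rose by 1.09 ± 0.10, from 53.9 ± 7.23 to 114.3 ± 13.9 CPM, and Cdkn1c and Ccng1 rose too, while 4 fell. Other cell types moved with time as well: 8 of 10 limb mesenchyme (median -0.65), 8 of 9 endothelial (-0.46), 6 of 9 erythroid (-1.05) and 2 of 11 epidermal markers (-0.31) fell, and 9 of 10 chondrocyte, 11 of 11 muscle and 9 of 10 macrophage markers rose. Summed limb mesenchyme markers ran from 1790 to 1993 CPM at 3 h and from 1349 to 1493 CPM at 24 h, and summed chondrocyte markers from 3902 to 5105 and from 10430 to 12430 CPM. Their part in the fall of the mitosis genes was not tested.

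**Figure D3:**
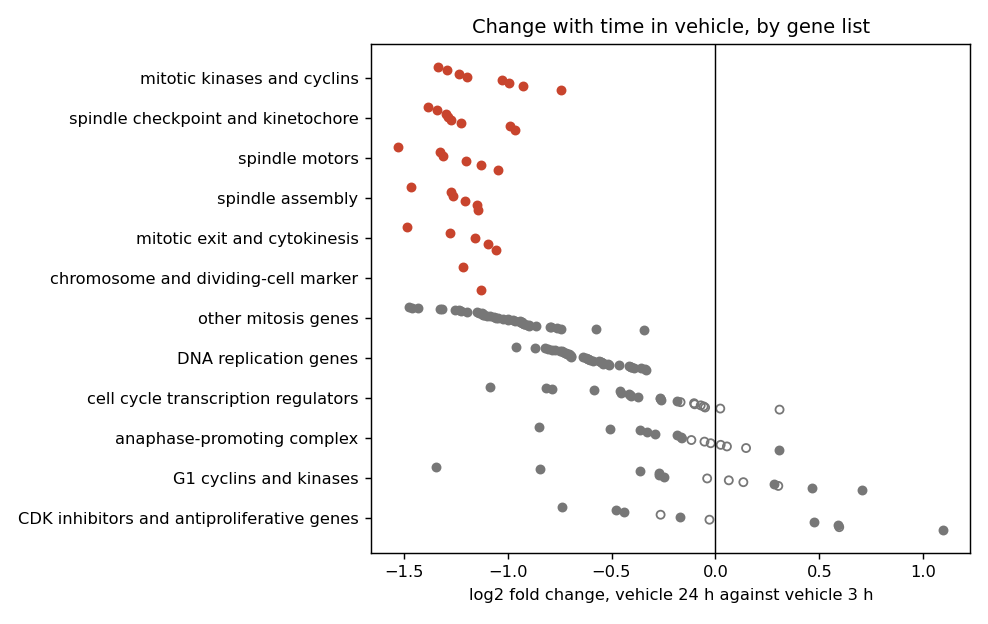
log2 fold change of vehicle cultures at 24 h against 3 h (x axis) for each gene (points) of the mitosis genes by role (red) and of other cell cycle lists (grey), filled where the adjusted p of edgeR was under 0.05. All red points lie between -1.53 and -0.74, DNA replication genes lie nearer to 0, and the last list reaches 1.09 at Cdkn1a.

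From 24 to 48 h in vehicle the mitosis genes moved little. Of the 35, 3 rose and none fell, where 5.44% of 16940 genes tested were higher. The median log2 fold change was 0.09, and 10 genes had an unadjusted p under 0.05, all higher, as had 12% of all genes. Spc25 rose from 25.1 ± 3.30 to 33.6 ± 1.89 CPM (log2 fold change 0.41 ± 0.09, adjusted p = 0.0128), Ckap2l, a spindle protein, from 35.3 ± 2.53 to 42.5 ± 2.15 CPM (0.25 ± 0.07, adjusted p = 0.0365) and Prc1, which bundles the microtubules of the central spindle, from 38.1 ± 1.96 to 45.4 ± 3.04 CPM (0.24 ± 0.07, adjusted p = 0.0418). The libraries of these 3 genes did not overlap between the times. Spc25 kept its call without any 1 of the 10 libraries, but only 1 gene passed without replicate 2, 4 or 5 at 24 h or replicate 2, 3, 4 or 5 at 48 h. For those fits the share of all genes higher is not given here. Mki67 was at 0.13 ± 0.07 and Ccnb1 at 0.00 ± 0.08. Of the 42 further mitosis genes 4 rose, Psrc1 at 1.09 ± 0.11 and Gtse1 at 1.00 ± 0.11 by more than any of the 35, with Ncaph at 0.35 ± 0.08 and Kif18b at 0.45 ± 0.11. Psrc1 and Gtse1 are known targets of p53, as is Cdkn1a, which rose from 114.3 ± 13.9 to 248.4 ± 27.9 CPM, and the part of p53 was not tested. Against 3 h, all 35 were still lower at 48 h, with a median of -1.10 (22.9% of 16905 genes were lower), and these comparisons share the vehicle libraries of each time. From 24 to 48 h, 8 of 10 chondrocyte, 4 of 10 macrophage and 3 of 11 muscle markers rose, and 5 of 10 limb mesenchyme, 2 of 9 endothelial and 6 of 7 tested erythroid markers fell (erythroid median -1.73). Their part was not tested.

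At 24 h, 50 µM bisphenol A lowered 5 of the 35 genes: Nusap1, Top2a, Kif23, Bub1 and Prc1. None was higher, and 2.1% of 16841 genes tested were lower. All 35 log2 fold changes were below 0, with a median of -0.26 (a 1.19-fold lower level) against -0.0009 over all genes, and 24 of the 35 had an unadjusted p under 0.05, where 8.77% of all genes were lower at that level. The 5 serve different steps, and every role but the kinases and cyclins had 1 of them. The medians of the roles lay close together all the same, at -0.23 for 8 kinases and cyclins, -0.27 for 8 checkpoint and kinetochore genes, -0.24 for 6 motors, -0.23 for 6 spindle assembly genes, -0.26 for 5 genes of exit and cytokinesis and -0.28 for Top2a and Mki67.

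Nusap1, which binds and bundles spindle microtubules, held 55.9, 57.4, 65.5, 47.2 and 51.3 CPM in vehicle and 40.6, 40.7, 36.5, 43.5 and 44.1 CPM with 50 µM (log2 fold change -0.44 ± 0.09, adjusted p = 0.0141). Top2a held 197.3, 202.5, 219.2, 198.3 and 206.7 CPM in vehicle and 160.7, 162.0, 181.7, 173.1 and 167.9 CPM with 50 µM (log2 fold change -0.28 ± 0.06, adjusted p = 0.0141). Kif23, the motor that forms the midbody with Racgap1, held 37.2, 39.5, 39.3, 30.9 and 36.1 CPM in vehicle and 28.5, 29.6, 28.7, 27.9 and 25.9 CPM with 50 µM (log2 fold change -0.39 ± 0.08, adjusted p = 0.0174). In each of these genes every treated library lay below every vehicle library, and vehicle replicate 4 was the lowest vehicle library of Nusap1 and of Kif23. Bub1, a checkpoint kinase, ran from 25.0 to 34.6 CPM in vehicle and from 20.4 to 24.5 CPM with 50 µM (log2 fold change -0.44 ± 0.10, adjusted p = 0.0268), again without overlap. Prc1 was at 38.1 ± 1.96 CPM in vehicle and 30.6 ± 2.84 CPM with 50 µM (log2 fold change -0.32 ± 0.08, adjusted p = 0.0398), also without overlap. In the deposited coordinates (mm10) these protein-coding genes lie at chr2:119618298-119651244 (Nusap1), chr11:98992943-99024189 (Top2a), chr9:61915905-61946774 (Kif23), chr2:127801122-127831865 (Bub1) and chr7:80294450-80316259 (Prc1).

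**Figure D4:**
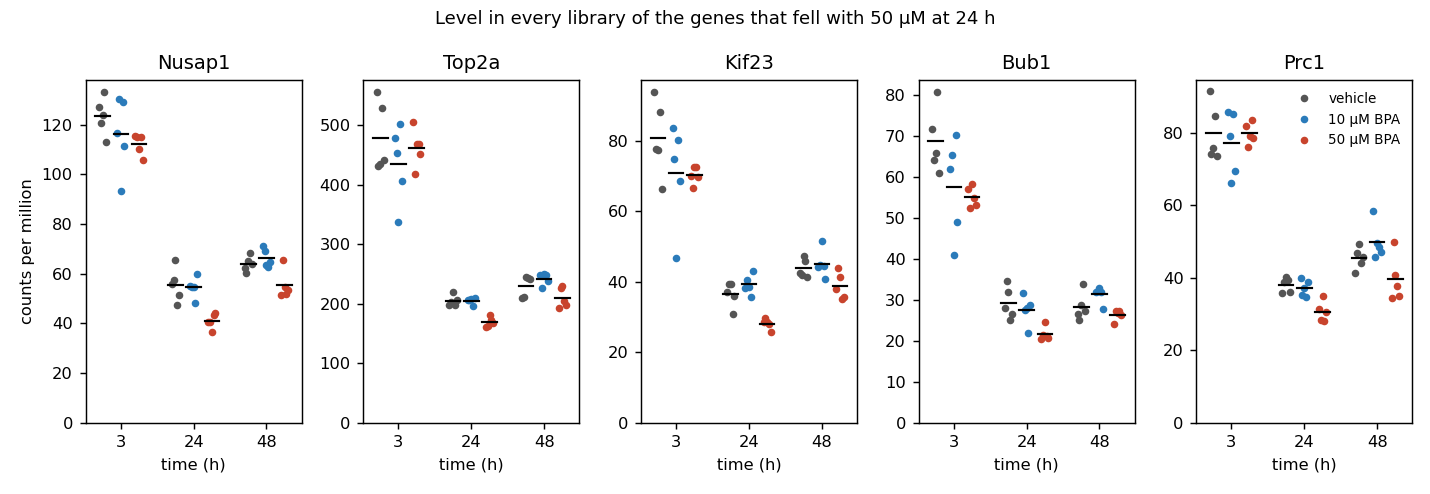
Levels in CPM (y axes from 0) in each library (points) of the 5 genes that fell with 50 µM bisphenol A at 24 h, by time in culture (x axes) and treatment (colour), with black bars at the mean of 5 libraries. The red points at 24 h lie below all grey points of that time in each panel, and all points at 24 and 48 h lie far below most of those at 3 h.

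The other 30 genes did not pass the test at 24 h. Mki67 came nearest, with 160.7, 191.9, 195.5, 175.5 and 169.9 CPM in vehicle and 140.4, 133.7, 171.0, 146.0 and 148.5 CPM with 50 µM (log2 fold change -0.28 ± 0.08, adjusted p = 0.0619). Treated replicate 3, its highest treated library, overlapped the vehicle group, and without it the adjusted p of Mki67 was 0.0206. Without vehicle replicate 1, the lowest vehicle library, it was 0.0369. Cdk1 held 55.8, 46.7, 46.6, 51.1 and 50.8 CPM with 50 µM, against 54.96 to 62.6 CPM in vehicle, and had a log2 fold change of -0.23 ± 0.07 (adjusted p = 0.103). Ccnb1 held 40.5, 46.5, 50.1, 38.8 and 39.5 CPM, against 45.1 to 59.0 CPM in vehicle (-0.24 ± 0.10, adjusted p = 0.224). Aurkb, at 23.2, 24.7, 26.7, 24.8 and 23.8 CPM with 50 µM, lay within the vehicle range of 22.9 to 32.2 CPM (-0.16 ± 0.10). Cdc20, at 38.2, 42.5, 44.0, 31.02 and 34.9 CPM, had replicates 4 and 5 below the vehicle range of 36.1 to 49.1 CPM (-0.15 ± 0.11). Ttk, the kinase at the head of the checkpoint, had the largest p of the 35, with 16.6, 18.7, 17.2, 15.6 and 14.4 CPM in vehicle and 13.0, 15.5, 16.5, 15.6 and 19.2 CPM with 50 µM (log2 fold change -0.05 ± 0.11). Ndc80 and Nuf2, at -0.45 ± 0.14 and -0.44 ± 0.13, had differences as large as that of Nusap1 with a wider spread (adjusted p = 0.0947 and 0.0847). Anln, Aurka, Hmmr and Birc5 lay between -0.36 and -0.29, and Kif2c, Kif20a, Ect2 and Cenpf between -0.13 and -0.10, with overlapping libraries in each.

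The number of genes called at 24 h depended on single libraries. It was 2 without replicate 2 or 5 of 50 µM or replicate 3 of vehicle, 3 without replicate 4 of 50 µM or replicate 2 of vehicle, and 8 without replicate 3 of 50 µM or replicate 1 of vehicle. The share of all genes lower in each fit without a library is not given here. Nusap1 kept its call in all 10 of these fits, Top2a lost it in 1, Kif23 in 2, Bub1 in 6 and Prc1 in 8. DESeq2 called 10 genes, all lower, where it called 3.39% of all genes lower. A fit of all 45 libraries called 11, where 2.78% of all genes were lower, and none passed at an adjusted p under 0.01. The authors' deposited table lists 10 as lower too, and its 35 log2 fold changes ran from -0.45 to -0.05. The share of all genes that it lists as lower is not given here.

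Among the other lists at 24 h, 3 of the 42 further mitosis genes fell with 50 µM: Ncapg, a condensin subunit, at -0.40 ± 0.09, Sgo2a, which guards the cohesion of centromeres, at -0.55 ± 0.13, and Tacc3 of the spindle at -0.39 ± 0.09. No DNA replication gene of 38 was called by edgeR, with 10 lower and none higher at an unadjusted p under 0.05 and a median of -0.12. Pcna was at -0.10 ± 0.06, Foxm1 at -0.25 ± 0.08 (adjusted p = 0.12) and Mybl2 at -0.16 ± 0.13. The G1 cyclin Ccne1 fell by 0.38 ± 0.10, and Cdkn1a, an inhibitor of the cycle, also fell by 0.35 ± 0.08. At the same time 7 of 11 muscle markers and 3 of 10 macrophage markers fell with 50 µM, their sums ranging from 2739 to 5184 CPM in vehicle and 2162 to 2928 CPM with 50 µM for muscle, and from 171.7 to 203.2 and 132.1 to 141.7 CPM for macrophages. No limb mesenchyme, endothelial, erythroid or epidermal marker was called, and 1 of 10 chondrocyte markers fell. The part of these cell types in the lower level of the mitosis genes was not tested. With the level of epidermal markers as a covariate 9 of the 35 genes were called, where 2.55% of all genes were lower. Replicates 4 and 5 held the lowest epidermal sums in both groups, so this fit cannot isolate the part of epidermis. The muscle and macrophage markers, which did move, were not used as a covariate.

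At 48 h, 50 µM bisphenol A lowered 1 of the 35 genes, Ube2c, and none was higher, where 5.3% of 16732 genes tested were lower. Among all genes tested the share called lower was thus no smaller than among the 35. The median log2 fold change was -0.13, 32 of the 35 were below 0 and 11 had an unadjusted p under 0.05, all lower, against 12.3% of all genes. Ube2c held 46.2, 45.3, 43.7, 42.0 and 40.1 CPM in vehicle and 38.7, 38.2, 37.8, 35.3 and 34.6 CPM with 50 µM (log2 fold change -0.24 ± 0.06, adjusted p = 0.0235). The groups did not overlap; the gene lies at chr2:164769898-164778822 (mm10). Nusap1 held 62.3, 60.1, 65.0, 68.4 and 63.8 CPM in vehicle and 51.5, 65.7, 54.5, 51.8 and 53.5 CPM with 50 µM, where replicate 2 alone reached the vehicle range (-0.22 ± 0.07, adjusted p = 0.0651). Ccna2 held 73.8, 67.5, 71.0, 81.0 and 77.3 CPM in vehicle and 60.0, 75.0, 64.3, 65.8 and 60.2 CPM with 50 µM, again with replicate 2 apart (-0.20 ± 0.07, adjusted p = 0.0923). Anln, the cleavage furrow scaffold, had the largest p, with 37.6, 34.7, 44.1, 42.0 and 37.0 CPM in vehicle and 34.2, 42.3, 41.4, 37.5 and 37.0 CPM with 50 µM (-0.03 ± 0.08). Cenpf, Cenpe and Aspm alone lay above 0, at 0.13 ± 0.08, 0.08 ± 0.09 and 0.05 ± 0.08, while Ccnb2, Plk1 and Kif4 were at -0.22 ± 0.09, -0.20 ± 0.09 and -0.20 ± 0.09.

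None of the genes whose libraries were given at 24 h was called at 48 h. Mki67 held 182.6, 183.6, 207.7, 225.5 and 186.1 CPM in vehicle and 160.4, 233.9, 188.3, 179.1 and 179.5 CPM with 50 µM (log2 fold change -0.08 ± 0.09). Top2a held 210.1, 211.8, 245.4, 243.1 and 241.3 CPM in vehicle and 192.1, 226.9, 229.2, 205.1 and 198.3 CPM with 50 µM (-0.14 ± 0.07). Both sets overlapped, but treated libraries at 160.4, 179.1 and 179.5 CPM of Mki67 lay below every vehicle library. So did those at 192.1, 205.1 and 198.3 CPM of Top2a. Cdk1 held 68.7, 64.5, 65.3, 64.7 and 61.5 CPM in vehicle and 54.6, 62.6, 63.3, 57.0 and 62.8 CPM with 50 µM (-0.12 ± 0.06). Ccnb1 at 51.1 ± 4.08 and 49.4 ± 5.40 CPM and Aurkb at 30.99 ± 4.75 and 29.9 ± 3.16 CPM differed by less than their SD, and Cdc20 at 48.1 ± 5.11 and 42.7 ± 3.15 CPM had a log2 fold change of -0.18 ± 0.08 (adjusted p = 0.17).

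Libraries with the same replicate number deviated together at 48 h in vehicle and 50 µM. With that number as a block 3 genes fell by edgeR, Ube2c (adjusted p = 0.00842), Nusap1 (0.0347) and Prc1 (-0.22 ± 0.07, 0.0424). In that fit 8.24% of genes tested were lower, a share close to that among the 35. Treated replicate 2 held 0.181% of its counts in the 35 genes, above the 0.147% to 0.166% of the other treated libraries. With that library left out, 5 genes fell by edgeR with no block, and the share of all genes lower in that fit is not given here. For Nusap1 the log2 fold change without that library was -0.28 (adjusted p = 0.00764) and for Ccna2 -0.25 (adjusted p = 0.0279). None fell without treated replicate 4 or 5 or vehicle replicate 1 or 2, so Ube2c lost its call in 4 of 10 such fits. Of the other lists at 48 h, 1 of the 42 further mitosis genes fell (Incenp, a partner of Aurkb, at -0.28 ± 0.08), and so did the replication genes Lig1 and Cdc6 at -0.21 ± 0.05 and -0.37 ± 0.11, and Ccne1 at -0.29 ± 0.08. In the anaphase-promoting complex Anapc4 and Anapc13 fell, at -0.20 ± 0.05 and -0.30 ± 0.09. Ccnd2, a D-type cyclin, rose by 0.27 ± 0.06, Nfya, a subunit of NF-Y, by 0.18 ± 0.06 and the inhibitor Cdkn2b from 1.53 to 3.48 CPM on average, while Cdkn1a was at -0.10 ± 0.12. Muscle markers fell in 9 of 11 and macrophage markers in 5 of 10, with sums of 4195 to 6568 against 1842 to 3008 CPM and of 248 to 324 against 130 to 246 CPM, and their part was not tested.

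At 3 h none of the 35 genes was called by edgeR with 50 µM, where 0.518% of 16988 genes were lower and 0.889% higher. At an unadjusted p under 0.05, 6 were lower and 1, Aurkb, was higher, as were 5.8% and 6.89% of all genes, and DESeq2 called 1, Bub1. Bub1 was at 68.8 ± 7.78 CPM in vehicle and 55.2 ± 2.52 CPM with 50 µM without overlap (log2 fold change -0.32 ± 0.08, adjusted p = 0.0706). It passed the threshold of edgeR without vehicle replicate 5 (adjusted p = 0.0395). The median of the 35 was -0.05. Aurkb was at 56.2 ± 2.89 and 63.1 ± 3.70 CPM (0.17 ± 0.07, adjusted p = 0.292).

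**Figure D5:**
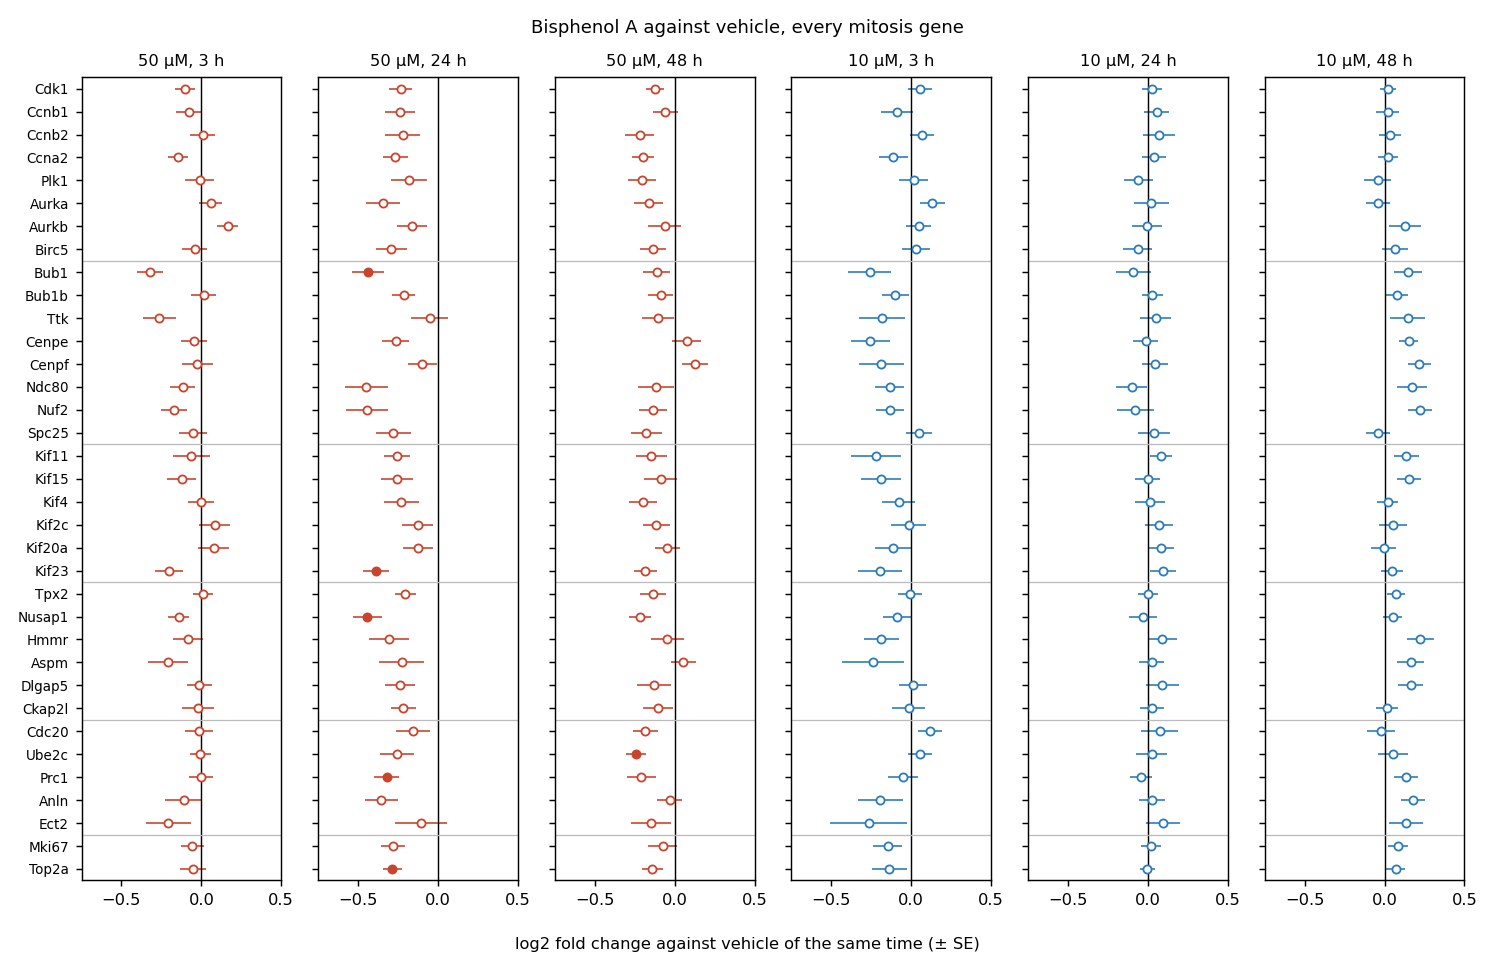
log2 fold change ± SE (x axes) of each of the 35 mitosis genes (rows, in blocks by role) with 50 µM (red) and 10 µM (blue) bisphenol A against vehicle of the same time, filled where the adjusted p of edgeR was under 0.05. At 50 µM and 24 h all 35 points lie left of 0 and 5 are filled, at 48 h 1 is filled, and no blue point is.

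With 10 µM none of the 35 genes was called at any time by edgeR or by DESeq2, where edgeR called 0% of all genes higher or lower at 3 and 24 h and 0.00591% at 48 h. Medians were -0.10, 0.02 and 0.07 at 3, 24 and 48 h. At an unadjusted p under 0.05 none of the 35 passed at 3 h, where 2.53% of all genes were lower and 3.2% higher, or at 24 h, where 2.22% were lower and 2.39% higher. At 48 h 5 were higher and none lower, where 3.08% of all genes were higher and 2.71% lower. At 24 h the largest differences were -0.10 ± 0.10 for Ndc80 and 0.10 ± 0.08 for Kif23, while Nusap1 was at -0.03 ± 0.09 and Top2a at -0.003 ± 0.048. At 48 h Nuf2 had the smallest p, at 37.1 ± 2.80 against 31.8 ± 2.17 CPM in vehicle (0.22 ± 0.07, adjusted p = 0.693).

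The 2 doses were compared directly in a fit of all 45 libraries. At 24 h, 5 of the 35 genes were lower with 50 than with 10 µM, where 0.53% of 19259 genes tested were, and none was higher. These were Nusap1 (54.5 ± 4.25 CPM with 10 µM and 41.1 ± 3.03 CPM with 50 µM, log2 fold change -0.41 ± 0.08, adjusted p = 0.00377), Kif23 (39.3 ± 2.76 and 28.1 ± 1.41 CPM, -0.48 ± 0.10, adjusted p = 0.00693), Cdk1 (60.0 ± 3.70 and 50.2 ± 3.79 CPM, -0.25 ± 0.06, adjusted p = 0.0209), Aurka (-0.36 ± 0.09, adjusted p = 0.0295) and Ccna2 (-0.30 ± 0.07, adjusted p = 0.0295). Of these, Aurka alone overlapped between the doses. All 35 were below 0 with a median of -0.27, and 29 had an unadjusted p under 0.05 (5.69% of all genes were lower at that level). Nusap1 and Kif23 kept their calls without any 1 of the 10 libraries, while Cdk1 lost it in 4, Aurka in 5 and Ccna2 in 9 of the 10 fits, and 3 genes were called without replicate 1, 2 or 5 of 10 µM or replicate 2 or 4 of 50 µM. At 48 h 2 genes were lower, Prc1 (-0.33 ± 0.08, adjusted p = 0.0141) and Nuf2 (-0.34 ± 0.10, adjusted p = 0.0415), where 2.11% of all genes were, and the median was -0.20. Prc1 lost its call in 3 and Nuf2 in 7 of 10 fits without a library. The count at 48 h was 8 without replicate 2 of 50 µM, 1 without replicate 2 or 5 of 10 µM or replicate 4 or 5 of 50 µM, and 0 without replicate 1 of either dose. For the fits without a library at 24 and 48 h, the share of all genes lower is not given here. At 3 h none was called by edgeR or DESeq2, where 0.353% of all genes were called higher and 0.265% lower. At an unadjusted p under 0.05, 2 were higher and 1 lower, as were 5.43% and 5.3% of all genes. Against 10 µM, 4 of 11 muscle markers were lower with 50 µM at 24 h (median -0.46) and 9 of 11 at 48 h (-0.92), with 3 of 10 macrophage markers lower at 48 h, and their part was not tested. The comparisons of each dose with vehicle and with the other dose share their libraries.

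Whether the difference made by 50 µM itself changed between times was tested as an interaction. For no gene of the 35 did it pass, by edgeR or by DESeq2. For 24 against 3 h, where 0.592% of 19259 genes passed in either direction, the median was -0.23 and 11 genes had an unadjusted p under 0.05, all lower, as had 6.12% of all genes. Aurka, at -0.41 ± 0.12 (adjusted p = 0.121), had the smallest p. For 48 against 24 h, where 0% of all genes passed, the median was 0.12 and 6 genes had an unadjusted p under 0.05, all higher, as had 1.6% of all genes. For 48 against 3 h, where 1.96% of all genes passed, no gene of the 35 had an unadjusted p under 0.05, and 6.92% of all genes were lower and 4.82% higher at that level. The effect at 24 h is thus not shown to differ from that at 3 or 48 h.

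Within 50 µM cultures all 35 genes fell from 3 to 24 h, with a median of -1.41, where 15.5% of 16860 genes were lower. From 24 to 48 h 13 rose and none fell, where 7.15% of 16706 genes were higher, and the median was 0.26. Kif23 rose from 28.1 ± 1.41 to 38.8 ± 3.81 CPM (log2 fold change 0.45 ± 0.08, adjusted p = 0.00106), Nusap1 from 41.1 ± 3.03 to 55.4 ± 5.89 CPM (0.42 ± 0.08, adjusted p = 0.0019), and Top2a from 169.1 ± 8.60 to 210.3 ± 16.9 CPM (0.30 ± 0.06, adjusted p = 0.00376). The libraries of these 3 did not overlap between the times. Hmmr at 0.52 ± 0.13 and Spc25 at 0.51 ± 0.11, both of the spindle or its attachment, had larger values, and Anln, Ccna2, Mki67, Ckap2l, Nuf2, Cdk1, Prc1 and Bub1 also rose, by 0.25 to 0.41. The count was 6 without replicate 2 at 48 h and 7 without replicate 2 at 24 h, and the share of all genes higher in those fits is not given here. In the same comparison 9 of 10 chondrocyte, 3 of 10 macrophage and 1 of 10 tested muscle markers rose. There 6 of 10 limb mesenchyme, 6 of 8 tested erythroid (median -1.69), 1 of 9 endothelial and 2 of 11 epidermal markers fell. From 3 to 24 h, 10 of 10 chondrocyte, 10 of 10 tested muscle and 8 of 10 macrophage markers rose, with 1 macrophage marker lower. Over that time 8 of 10 limb mesenchyme, 8 of 9 endothelial and 5 of 9 erythroid markers fell, and of 11 epidermal markers 4 fell and 2 rose. Their part was not tested. These values use the 50 µM libraries of 24 h, which also gave the lower levels against vehicle, so they are no independent view of them.

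Within groups, the genes also varied together. Over the 45 libraries, deviations of log2 CPM from the group mean had a median correlation of 0.408 between pairs of the 35 genes (595 pairs, 86.9% above 0), of 0.153 between these genes and the 38 DNA replication genes, and of -0.0727 with the 15 genes of the anaphase-promoting complex. These are descriptions, since all genes of a library share its depth and preparation. The genes closest to the rest were Top2a, Kif15 and Anln, with median correlations of 0.629, 0.628 and 0.622, and Anln and Aspm formed the closest pair at 0.899. The least close were Ube2c at -0.0218, Birc5 at 0.0168 and Cdk1 at 0.0439. Deposited gene length moved with this: the 17 genes longer than the median of 4819 bases had a median correlation of 0.571 among themselves and the 18 others 0.313, and its part was not tested.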

How the data were processed

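RNA of 45 cultures was sequenced in 9 groups of 5, and groups and times were taken from the sample titles. The deposited counts are whole reads per gene, made with STAR 2.5, HTSeq 0.6.1, DESeq2 2, CASAVA 1.8 and build mm10, named without roles per the submitters' processing notes. The authors' normalised signal (counts over a size factor) and FPKM columns were used for checks alone. The authors' own log2 fold changes and p-values were used only where their deposited table is named. Strand use in counting: not given in the sources used here. Overlapping and antisense genes therefore cannot be told apart. For 50 µM at 3 h a label field gives another treatment length, and the title was followed.

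Counts shared between tables were equal (1345730 values compared, 0 unequal), and every value column matched a labelled sample. Where none of a library's tables listed a gene, its count was set to 0 (192120 values). Such a 0 need not be true, as 6484 counts above 0 belonged to genes absent from another table of the same library. All 35 genes were listed in each of the 9 tables. Counts were tested with edgeR 4.0.16 in R 4.3.3 (quasi-likelihood, TMM, minimum count 10, minimum total 15, Benjamini-Hochberg at 0.05) on the 10 libraries compared, or on all 45 for comparisons between doses and interactions. The fit was tested on simulated counts. SE is the absolute log2 fold change over the square root of the F statistic. Depth bounds the precision, and as reads carry no molecular identifiers, PCR copies count as separate reads. Genes were matched by symbol, and RefSeq promoter windows by symbol too.

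The 35 genes, the other lists and the tests were chosen with earlier results of these data known. Levels in every library are given for Mki67, Ccnb1, Cdk1, Aurkb, Cdc20, Top2a and, in the main comparisons, the 3 genes of smallest p and the one of largest p. From other lists, up to 4 called genes of smallest p (all where 5 or fewer) and Cdkn1a, Foxm1, Mybl2 and Pcna may be named. Deviations of same-numbered libraries correlated over 0.1 in every pair only for 50 µM against vehicle at 48 h (0.106 to 0.216). With numbers taken from the library codes, which exchange replicates 1 and 2 of 10 µM at 48 h against the titles, 10 µM against vehicle and 50 against 10 µM at 48 h also passed, and the block gave 0 and 3 called genes there. Alternatives were DESeq2 1.42.0, other normalisations and filters, a threshold of 0.01, other sets of libraries, the replicate block, an epidermal covariate and leaving out each library.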

Additional observations from a re-analysis of the deposited data

Results flagged for a closer look

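In groups of 5 libraries, 1 library stood apart from the other 4 for 7 of the 153 sets of levels looked at (16 genes and the share of counts in the 35, in each of 9 groups), by the ratio of its gap to the range, and chance alone marks about 1 in 20 such sets. With 10 µM at 3 h, replicate 3 held 116.2 CPM of Cdk1 where the next library held 102. With 50 µM at 3 h, replicate 3 was lowest for Aurkb at 56.54 CPM (next 64.35) and for Ccna2 at 102.8 CPM (next 112.9), and replicate 5 was lowest for Ttk at 30.36 CPM (next 34.04). With 50 µM at 24 h, replicate 3 held 69.79 CPM of Tpx2 (next 63.73). With 50 µM at 48 h, replicate 2 held 65.67 CPM of Nusap1 (next 54.54), the library that also held the largest share of its counts in the 35 genes. With 10 µM at 48 h, replicate 4 held 48.86 CPM of Anln (next 44.06).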

How the results depend on the processing

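All 35 genes were called lower at 24 and 48 h against 3 h in vehicle, and at 24 against 3 h with 50 µM, under every alternative and without any 1 library (35 to 35). None was called for 10 µM, for the interactions or for 50 against 10 µM at 3 h (0 to 0). For 50 µM against vehicle at 24 h (5 called), the count was 10 with DESeq2, 11 with all 45 libraries in 1 fit, 9 with the epidermal covariate, 16 with the replicate block (the 5 and 11 more, among them Mki67, adjusted p = 0.00772, and Ccnb1, 0.0353, where 4.16% of all genes were lower), 0 at a threshold of 0.01 and 2 to 8 without a library. These 24 h libraries are not shown to be paired: same-numbered ones had correlations of 0.0348 to 0.22, though 5 of 5 correlated best with their own number. At 48 h (1 called), it was 3 with the replicate block, 0 with all 45 libraries, with no filter or at 0.01, and 0 to 5 without a library. At 3 h (0 called), it was 1 with DESeq2, with no filter or with the replicate block and 0 to 1 without a library. For 50 against 10 µM at 24 h (5 called), it was 10 with DESeq2, 2 with no filter or at 0.01 and 3 to 6 without a library. At 48 h (2 called), it was 4 with DESeq2, 1 with no filter or only the groups compared, 0 at 0.01 and 0 to 8 without a library. For vehicle at 48 against 24 h (3 called), it was 1 with all 45 libraries, no filter or the replicate block, 0 at 0.01 and 1 to 4 without a library. For 50 µM at 48 against 24 h (13 called), it was 5 at 0.01 and 6 to 14 without a library. For counts without a library, the share of all genes called in the same fit is not given here. The replicate block changed no other count by more than 1.5 times. The cause of these shifts was not tested, beyond the stricter threshold and the fewer libraries.

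Of 2423 values of single genes under an alternative, 2175 kept direction and side of the threshold, 225 lost a call, 19 gained one and 4 reversed: Ttk at 24 h without 50 µM replicate 1 (range without a library -0.121 to 0.018), Anln at 48 h without 50 µM replicate 1 or vehicle replicate 3 (-0.067 to 0.013), and Aurkb at 48 h without vehicle replicate 3 (-0.115 to 0.005). Medians over the 35 genes were set against the SD, among libraries of a group, of the mean log2 CPM of these genes. They moved by less than that SD in 326 of 327 values, the exception being vehicle at 48 against 24 h without replicate 3 of 24 h (0.16). No alternative moved the median of all genes by more than 0.026. Bulk RNA gives no count of dividing cells.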
